A study of Mus musculus with 10 samples.

Results

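Genes of the ephrin A system, 10 in all, were followed on 10 microarrays of mouse spermatogonia: the receptor genes Epha1, Epha2, Epha4, Epha5 and Epha7 and the ligand genes Efna1, Efna2, Efna3, Efna4 and Efna5. Their members were the 15 non-control probes that carry one of these 10 gene names, of 55681 probes and 25075 gene names on the array. The group was put together because Epha2 had risen strongly with FGF5 in culture, so the values of that contrast are given below as a description, without a test. By the scanner software's flag, 10 of the 15 stood well above background on all 10 arrays, 2 on some arrays, and 3 on none.

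Eph receptors are receptor tyrosine kinases of the cell surface, and ephrins are ligands that stay attached to the membrane of a neighboring cell, so that signals pass where 2 cells touch. Ephrin A proteins are held by a lipid anchor and bind mainly EphA receptors, and both the receptor-bearing and the ligand-bearing cell can respond. The outcome is often repulsion, adhesion or a change of cell shape and movement, and cells commonly carry several receptors and ligands at once.

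The study asked what FGF5, a secreted mitogen, changes in GFRα1+ spermatogonia, the undifferentiated germ cells that hold the stem cells of the testis. In culture, wild-type germline stem (GS) cells, a propagating culture of spermatogonia, spent 3 days in medium lacking GDNF and FGF2 and were then kept for 24 hours with 100 ng/mL FGF5 (2 arrays) or without it (2 arrays). From the testis, GFRα1+ cells were sorted at 2.5 months of age from wild-type (3 arrays) and Fgf5-/- mice (3 arrays), all of which carried a Gfrα1-GFP reporter. The labels give C57BL/6 for all samples, while the methods name a C57BL/6 x ICR intercross as the source of the GS cells. The Fgf5 null allele was constitutive and not limited to the sorted cells. Nothing states that the replicates were separate cultures or that each sorted sample was 1 animal, and p-values then measure only the spread between these samples, which may be technical.

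Signals are log2 values set against each array's own 75th percentile, so 0 is that percentile and negative values lie under it. They are compared between samples for 1 probe and never between probes. The 75th percentile lay between 575 and 650 scanner units on the cultured arrays and between 794 and 1091 on the sorted arrays, and 55.3% to 65.9% of spots were well above background. The cultured arrays shared 1 slide and the sorted arrays another. All 10 markers of undifferentiated spermatogonia and all 5 of germ cells that were examined were well above background on every array. The Fgf5 probe was well above background on 0 of 3 wild-type and 1 of 3 Fgf5-/- sorted arrays, so it does not check the genotype labels, and on all 4 cultured arrays.

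Epha2 had the member values that varied most between groups. It encodes a receptor for ephrin A ligands, chiefly ephrin A1. Its probe, A_52_P518997, matches chr4:140885139-140885198 on the plus strand of mm9, the build of the files, and was well above background on all 10 arrays. Its signal was 1.09 and 3.46 in the GS cells with FGF5, and -1.76 and -2.54 in those without. It was 2.59, 3.09 and 2.86 in the wild-type sorted cells, and 2.67, 2.31 and 2.35 in the Fgf5-/- sorted cells. The 2 cultures without FGF5 were thus the low arrays, and the other 8 lay above them without overlap.

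In scanner units the same Epha2 spots read 1260 and 7083 with FGF5, 192 and 99 without, 5763 to 6892 in wild-type and 4940 to 5756 in Fgf5-/- sorted cells. The cultures with FGF5 exceeded those without by 4.43 on the log2 scale (SE 0.84, n = 2 against 2), or 21.5-fold. The difference was 3.24 without the second array with FGF5 and 5.61 without the first, so its size rested on single arrays. This was rank 2 from the top among the 34611 probes fitted in culture, which is what led to the choice of the group. Even the lowest array with FGF5 stood 2.85 above the highest without, but the 2 arrays with FGF5 also differed from each other more than any 2 arrays of another group did. The summed signal of fibroblast and peritubular markers, in multiples of the array's 75th percentile, was 14.0 and 5.71 with FGF5 and 15.7 and 7.16 without. The first array of each group thus had the higher sum. The part of other cells in the Epha2 difference between cultures was not tested.

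The sequence before and over the start of Epha2 is shown because this is the member with the large difference between cultures. It covers 250 bases before to 50 after the RefSeq start, at chr4:141300971-141301270 on the plus strand of GRCm38.p6, and the capitals mark TGACGTCA, a palindrome that begins 33 bases before the start.
Epha2: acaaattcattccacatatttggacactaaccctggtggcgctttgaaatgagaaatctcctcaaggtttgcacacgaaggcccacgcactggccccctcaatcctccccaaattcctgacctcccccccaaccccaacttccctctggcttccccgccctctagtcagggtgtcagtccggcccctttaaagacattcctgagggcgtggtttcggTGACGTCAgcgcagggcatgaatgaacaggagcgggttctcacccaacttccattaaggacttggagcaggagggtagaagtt
All 10 members had such a window, 13 windows in all. TGACGTCA was found in that of Epha2 alone among them, and in 1.79% of all 32851 mouse windows of this length. TGANTCA (7.81% of all windows), CCGGAAG (8.86%) and the CArG box (1.63%), read on both strands, matched none of the 13 windows. The 4 motifs were picked after the Epha2 sequence had been read, and a match describes letters only.

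**Figure D1:**
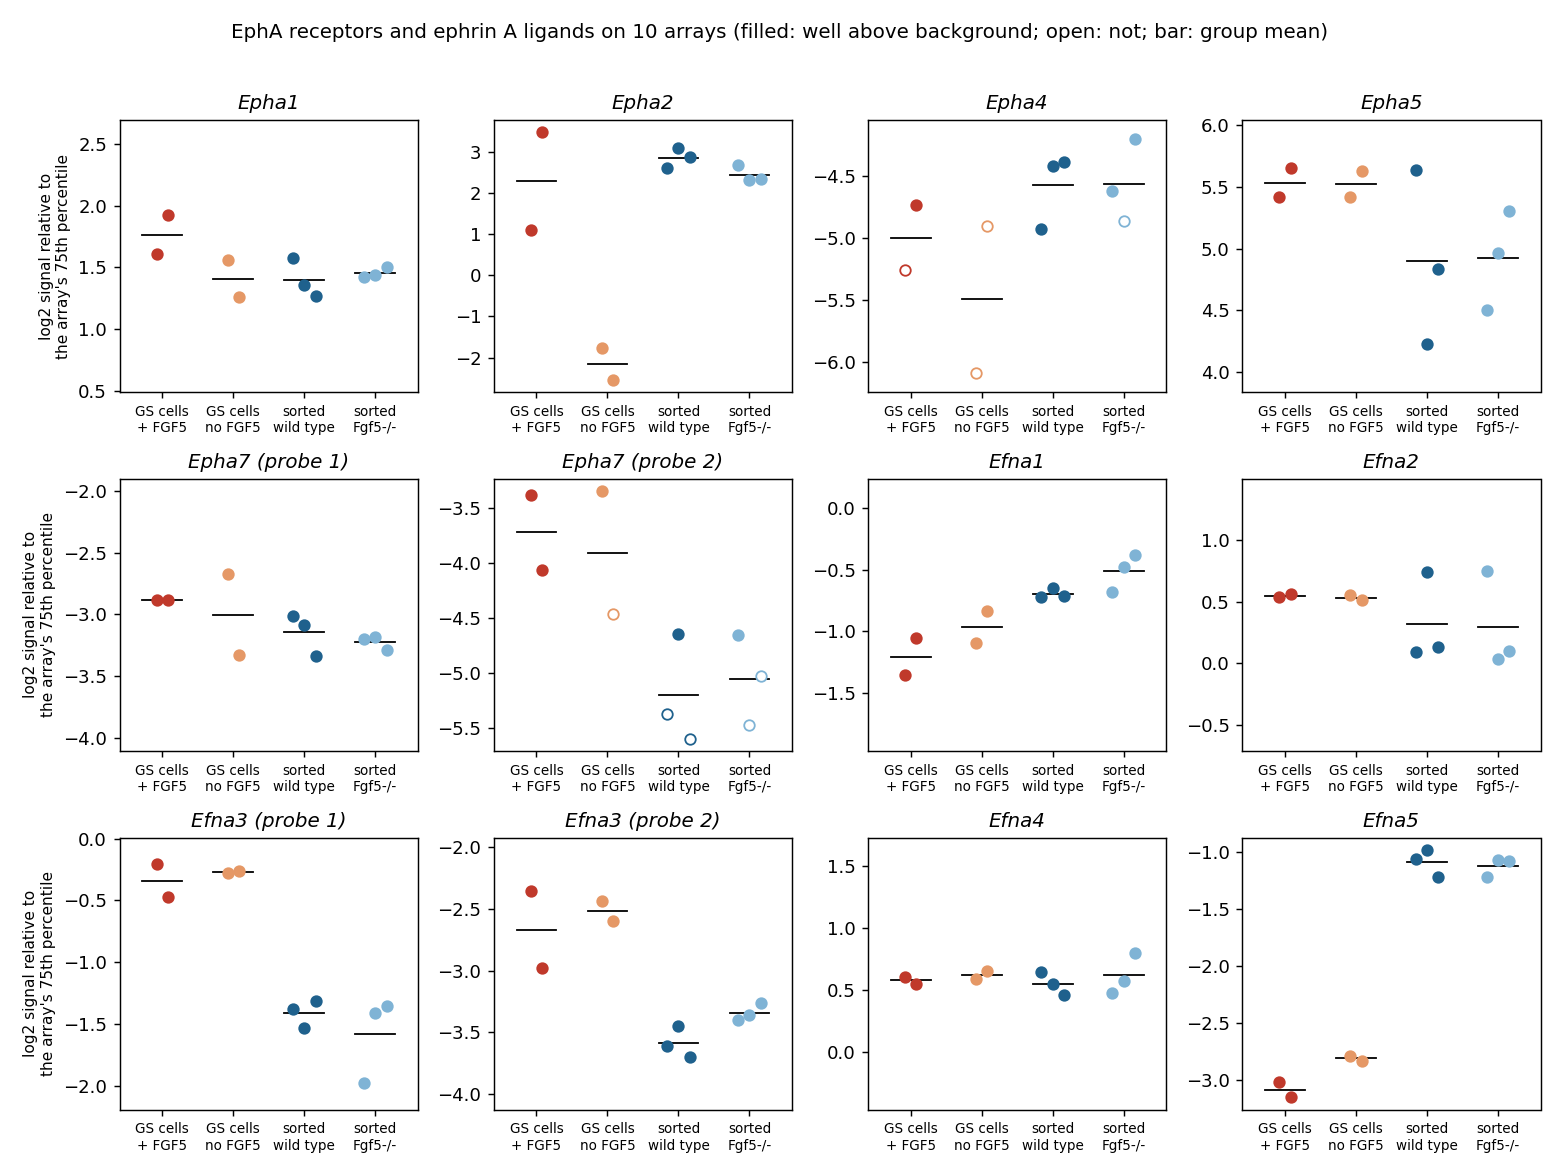
Log2 signal relative to the array's 75th percentile (y axis, scaled separately in each panel) for the 12 probes that were well above background on at least 1 array, by group (x axis), with a point for each array, filled where it was well above background, and a bar at the group mean. The Epha2 panel shows both cultures without FGF5 below -1.7 and the other 8 arrays above 1, and the Efna5 panel shows all 4 cultured arrays under all 6 sorted arrays.

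The other EphA receptors stayed close together across the 4 groups or were near background. Epha1, a receptor that binds ephrin A1 and is known mainly from epithelia, was measured on all 10 arrays. Its signal was 1.61 and 1.93 with FGF5, 1.56 and 1.26 without, 1.57, 1.36 and 1.27 in wild-type and 1.42, 1.44 and 1.50 in Fgf5-/- sorted cells. All arrays lay between 1.26 and 1.93, and the pair with FGF5 held the 2 highest values. Epha4, which binds both ephrin A and ephrin B ligands, was near background throughout. Its signal was -5.26 and -4.73 with FGF5, of which 1 was well above background, and -6.09 and -4.90 without, of which 0 were. It was -4.92, -4.41 and -4.39 in wild-type cells, all well above background, and -4.62, -4.86 and -4.20 in Fgf5-/- cells, 2 of them so. The highest values were thus in sorted cells, and the ranges overlapped.

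Epha5 and Epha7, receptors best known from the developing nervous system, had 3 probes each, which did not behave alike. For Epha5, probes A_55_P2062921 and A_55_P2100425 were well above background on 0 of 10 arrays. The third, A_55_P2062911 at chr5:84487348-84487407 on the minus strand of mm9, was bright on all of them, at 5.41 and 5.65 with FGF5, 5.42 and 5.63 without, 5.64, 4.23 and 4.83 in wild-type and 4.50, 4.96 and 5.31 in Fgf5-/- cells. Its last 30 bases are shown because they hold a simple repeat, in capitals, of 9 GT units.
Epha5 A_55_P2062911: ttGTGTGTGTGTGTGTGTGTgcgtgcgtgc
The array has 71 probes with at least 8 GT units in a row, and 71 of them were well above background on all 10 arrays, against 48.9% of all probes. The part of this repeat in the Epha5 signal was not tested.

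For Epha7, probe A_52_P306236 was well above background on 0 of 10 arrays. Probe A_52_P504787 (probe 1 in the plots) was so on all 10 and read -2.88 and -2.88 with FGF5, -2.67 and -3.33 without, -3.02, -3.08 and -3.34 in wild-type and -3.20, -3.18 and -3.29 in Fgf5-/- cells. Those groups overlapped. Probe A_55_P1969058 (probe 2) read -3.38 and -4.06 with FGF5 and -3.34 and -4.46 without, and 3 of these 4 arrays were well above background. In sorted cells it read -5.37, -4.64 and -5.59 in wild type and -4.65, -5.47 and -5.03 in Fgf5-/-, with 2 of 6 well above background. At this probe all 4 cultured values were above all 6 sorted ones, which held for neither other Epha7 probe.

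Among the ligands, Efna5, Efna3 and, more narrowly, Efna1 separated cultured from sorted cells on every array. The same held for 54.4% of the probes well above background on all 10 arrays. Efna5, a ligand for several EphA receptors, read -3.01 and -3.15 with FGF5 and -2.79 and -2.83 without. In sorted cells it read -1.06, -0.98 and -1.22 in wild type and -1.22, -1.07 and -1.07 in Fgf5-/-. The 4 cultured arrays were all below the 6 sorted arrays, and the 2 with FGF5 were the lowest of all. Efna3 ran the opposite way at both of its probes. At A_55_P2031157 (probe 1) it read -0.21 and -0.47 with FGF5, -0.28 and -0.26 without, -1.38, -1.53 and -1.31 in wild-type and -1.98, -1.41 and -1.35 in Fgf5-/- cells. At A_55_P2181796 (probe 2) it read -2.36 and -2.98 with FGF5, -2.44 and -2.60 without, -3.61, -3.45 and -3.70 in wild-type and -3.40, -3.36 and -3.27 in Fgf5-/- cells. At either probe the cultured and sorted arrays did not overlap.

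Efna1, a ligand that binds EPHA2, was slightly lower in culture. It read -1.35 and -1.06 with FGF5, -1.09 and -0.84 without, -0.72, -0.65 and -0.71 in wild-type and -0.68, -0.48 and -0.38 in Fgf5-/- cells. The cultured and sorted arrays did not overlap, though the nearest of them were close. Efna2 and Efna4, 2 further ephrin A ligands, showed no such order. Efna2 read 0.53 and 0.56 with FGF5, 0.55 and 0.51 without, 0.09, 0.74 and 0.13 in wild-type and 0.75, 0.04 and 0.10 in Fgf5-/- cells. One array of each sorted group was thus far above its other two. Efna4 was the steadiest member, with all 10 arrays between 0.46 and 0.80.

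Efna1, Efna3 and Efna4 are neighbors on chromosome 3. Their probes lie within 62.5 kb of each other in mm9, and between Efna1 and Efna4 the RefSeq annotation of GRCm38.p6 lists Efna3 as the only other protein-coding gene, with 4 lncRNA genes. In cultured against sorted cells these 3 neighbors were lower, higher and without a call, respectively, with the values given below.

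With and without FGF5 in culture, 11 member probes of 9 genes were bright enough to fit, where at least 1 of the groups compared had to have the probe well above background on each of its arrays. Over all 34611 probes fitted, limma called 0 (0%) at an adjusted p under 0.05, and 882 (2.55%) had an unadjusted p under 0.05. For the members no test is given. The arrays with and without FGF5 did not overlap for 3 of the 11, Epha2, Epha1 and Efna5, against 22.7% of all probes. Epha1 differed by 0.36 (SE 0.21) and Efna5 by -0.27 (SE 0.16). The other 8 probes differed by -0.24 to 0.18, and the median over the 11 was 0.0083, against -0.029 over all probes. As the group was chosen on this contrast, nothing is read from these counts.

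The sorted cells ask whether the same genes differ in spermatogonia of mice that lack Fgf5, a contrast that played no part in the choice. None of the 11 member probes fitted, which cover all 10 genes, was called by limma, and none had an unadjusted p under 0.05. Over all 30275 probes 0% were called and 6.79% (2055) had an unadjusted p under 0.05. Epha2 was 0.41 lower in Fgf5-/- cells (log2 difference -0.41, SE 0.17, 95% interval -0.82 to 0.0048, n = 3 against 3, limma adjusted p 0.728), and the groups overlapped. At Efna3 probe 2 the groups did not overlap, at 0.24 higher in Fgf5-/- (SE 0.11, limma adjusted p 0.731), but probe 1 of the same gene went the other way, at -0.17 (SE 0.19). Groups of 1 of 11 member probes did not overlap, against 16.2% of all probes. The other 8 probes differed by -0.08 to 0.18, and the median over the 11 was 0.014, against -0.031 over all probes. For Epha5 the interval was wide, -0.89 to 0.94. Those of Efna2 (-0.65 to 0.60), Efna3 probe 1 (-0.63 to 0.28) and Epha4 (-0.53 to 0.55) were also wide. That of Efna3 probe 2 was -0.027 to 0.51, and those of Efna1, Efna4, Efna5, Epha1 and Epha7 probe 1 lay within -0.37 and 0.46.

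**Figure D2:**
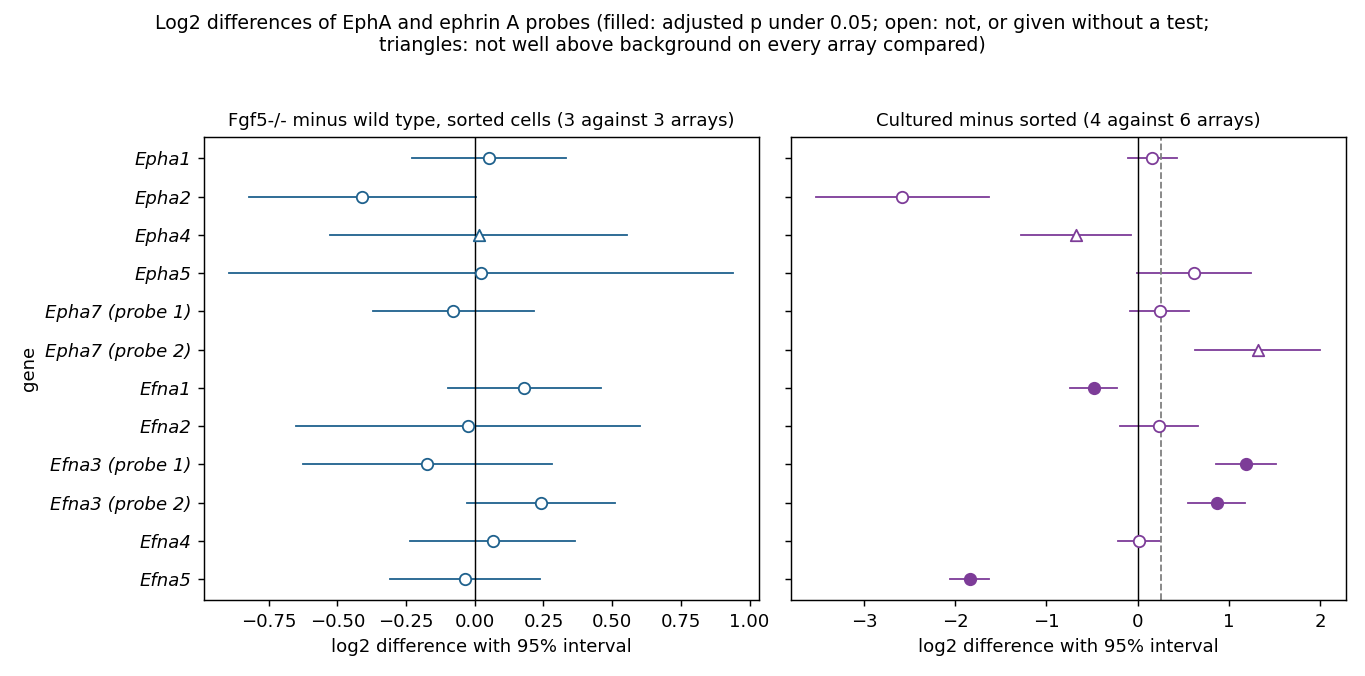
Log2 differences (x axes) of member probes (y axis) with 95% intervals from limma, for 11 probes in sorted Fgf5-/- against wild-type cells on the left and 12 in cultured against sorted cells on the right, where filled points have an adjusted p under 0.05, open points do not or are given without a test, triangles were not well above background on every array compared, and the dashed line is the median of all fitted probes. No point on the left is filled, and on the right Efna5 at -1.84 and both Efna3 probes and Efna1 are filled.

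Cultured and sorted cells were compared as the mean of both culture groups against the mean of both sorted groups. Material, slide and scan differ between the sides, as does strain by the methods but not by the labels, and they cannot be told apart. Epha2 is given here without a test, since the group was chosen on its values in these cultured arrays, and so are Epha4 and Epha7 probe 2, which were not well above background on every array. Of the 9 other probes, from 8 genes, limma called 2 higher and 2 lower in culture at an adjusted p under 0.05. These are 44.4% of the 9, below the 64.5% called (35.4% higher, 29.1% lower) of the 27224 probes that were well above background on all 10 arrays, so being called here is not particular to the members. Over all 35809 probes fitted 67.7% were called (41.9% higher, 25.7% lower), and arrays of the sides did not overlap for 55.7%. The median difference over the 9 was 0.23 and that over the 27224 was 0.081, and cultured and sorted arrays did not overlap for 4 of the 9 against 54.4%.

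Efna5 was lower in culture by 1.84 on the log2 scale (log2 difference -1.84, SE 0.09, limma adjusted p 2.8e-06), or 3.58-fold, on all 4 against all 6 arrays. For Epha2 the mean difference of -2.58 (SE 0.41) joined unlike cultures. Against wild-type sorted cells alone, it was -5.00 (SE 0.58) without FGF5 and -0.57 (SE 0.58) with it, as a description. The lower mean thus came from the cultures without FGF5, and the cultured and sorted arrays overlapped. Efna1 was lower by 0.48 (log2 difference -0.48, SE 0.11, adjusted p 0.0050), and the call was lost at -0.27 (adjusted p 0.177) when the cultures without FGF5 were set against wild-type cells alone.

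Efna3 was higher in culture at both probes, by 1.19 (SE 0.14, limma adjusted p 0.00016), or 2.28-fold, at probe 1 and by 0.87 (SE 0.14, adjusted p 0.00064), or 1.82-fold, at probe 2. Epha7 probe 1 differed by 0.24 (SE 0.14, adjusted p 0.157) and turned to -0.19 with quantile normalization. Epha7 probe 2 entered the fit only because both arrays with FGF5 were above background, the side where it is high. Its mean was 1.31 higher in culture, or 0.74 with quantile normalization. Epha4 entered it only through the wild-type sorted arrays. Its mean was 0.68 lower in culture (log2 difference -0.68), with 1 of 4 cultured and 5 of 6 sorted arrays above background, and turned to 0.12 with another background correction. Epha5 (0.62, SE 0.27, adjusted p 0.074), Efna2 (0.23, SE 0.19), Epha1 (0.16, SE 0.12) and Efna4 (0.016, SE 0.10) were not called.

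Signals of cell type markers also differed between the sides. Of the marker genes, Col1a2 (3.66) and Dcn (2.84) had the 2 largest differences toward culture. Both are made by fibroblasts and peritubular cells, and Dcn was above background on 1 of 6 sorted arrays. Toward sorted cells the 2 largest were Etv5 (-3.50) and Gfra1 (-3.01), of undifferentiated spermatogonia. Their cultured means joined cultures with and without FGF5, at 3.68 and -0.24 for Etv5 and -1.52 and -3.08 for Gfra1. Of the 10 markers of undifferentiated spermatogonia limma called 7 lower in culture, 1 higher (Zbtb16, 0.25) and 2 not. Of 5 germ cell markers it called 3 higher and 0 lower. Of 10 fibroblast and peritubular markers 8 were well above background on each cultured array and 6 to 9 on the sorted arrays, and their summed linear signal was 5.71 to 15.7 and 4.23 to 5.88. The list did not move as a whole, since of its 9 fitted markers limma called 5 higher and 2 lower in culture, the latter Pdgfra (-0.46) and Pdgfrb (-2.12, on 0 of 4 cultured arrays). The sum of 8 Sertoli cell markers, 6 to 7 of them above background, was 17.7 to 24.6 in cultured and 28.7 to 45.4 in sorted samples. Its brightest term was Ctsl (-0.99). Of the 7 Sertoli cell markers fitted, limma called 5 lower in culture and 1 higher, Sox9 (2.03, above background on 3 of 6 sorted arrays). The sum of 10 markers of undifferentiated spermatogonia was 134 to 139 in cultured and 158 to 188 in sorted samples. Sums for 4 Leydig cell markers (4.98 to 6.65 against 0.417 to 1.95) and 4 macrophage markers (3.28 to 4.15 against 0.757 to 1.73) were higher in culture, and so was that of 5 endothelial markers (8.07 to 9.67 against 2.39 to 4.65). The Leydig sum was mostly its brightest term, Cyp17a1 (2.30), and Star (0.70) was also higher. Hsd3b1 was above background on 1 of 4 cultured and 0 of 6 sorted arrays. The endothelial markers were split, with Kdr (1.43), the brightest term of the sum, and Pecam1 (1.05) higher, and Cdh5 (-2.35) and Tek (above background on 6 of 6 sorted and 0 of 4 cultured arrays) lower. These further markers were named after their values were seen. Among defining markers, Amh of Sertoli cells, Cyp11a1 of Leydig cells, Emcn of endothelium and Lyz2 of macrophages were well above background on 0 of 10 arrays. In such bulk samples fewer cells of a type and less RNA per cell cannot be told apart, and the part of other cells in the differences of Efna5, Efna3, Efna1 and Epha2 was not tested.

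The genes patterned most like Epha2 were sought among 24512 probes of 18136 genes by Pearson's r over the 10 arrays, as a description. The 6 highest were Spry4, an inhibitor of receptor tyrosine kinase signaling (r = 0.993), Arhgap31, a GTPase-activating protein for Rac1 and Cdc42 (0.993), 9930012K11Rik (0.987), Cd82, a tetraspanin (0.987), Bcl6b, a transcriptional repressor (0.979), and Zfp385c, a zinc finger protein (0.978). In all, 34 genes had an r of 0.95 or more. All of the arrays of 1 material share a slide, and for Epha2 and each of the 6 genes the 2 lowest arrays were the cultures without FGF5.

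Spry4 read -3.21 and -1.21 with FGF5 and -5.51 and -7.06 without, against -1.99 to -1.48 in all sorted cells. It was well above background on 0 of 2 cultures without FGF5, so its level there is known only as background and its r rests in part on such values. The other 5 genes were well above background on all 10 arrays. Bcl6b read 0.98 and 2.27 with FGF5, -0.78 and -1.01 without and 1.17 to 1.57 in sorted cells. Arhgap31 read -0.05 and 1.67, then -1.33 and -1.59, against 0.97 to 1.24 in sorted cells. In all 6 genes, as in Epha2, the second culture with FGF5 was above the first, and both were above the cultures without it. The 6 were picked by r over these same arrays, so this shared order largely follows from the choice. Between Fgf5-/- and wild-type sorted cells the 6 differed by -0.26 to 0.0016, where Epha2 differed by -0.41.

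**Figure D3:**
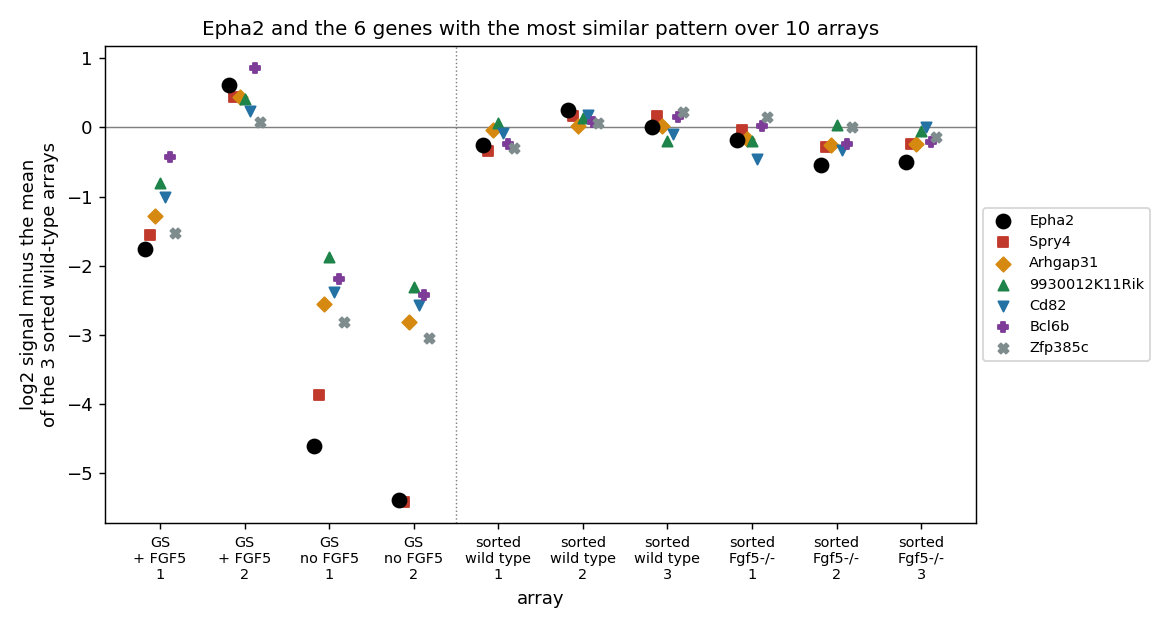
Log2 signal minus the gene's own mean over the 3 wild-type sorted arrays (y axis) for Epha2 and the 6 genes most like it, on each of the 10 arrays (x axis), with a symbol for each gene and a dotted line between cultured and sorted samples. The cultures without FGF5 are at the bottom, where the 2 Spry4 points are not well above background, and the sorted arrays lie near 0.

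The other genes of Eph signaling were taken from a list of 55: 12 further receptors and ephrins, 35 adaptors and effectors and 8 genes of receptor and ligand turnover. Each was read at its brightest probe over the arrays of a comparison. The probe of a gene could thus differ between comparisons, as it did for Efnb2 and Anks1b. In culture 0 of the 49 fitted were called with FGF5, and 0 had an unadjusted p under 0.05. The 4 with the largest differences were Chn2, a Rac GTPase-activating protein (1.22, SE 0.90), Ephb1, a receptor for ephrin B ligands (0.71, SE 0.34), Mmp14, a membrane-bound protease (0.70, SE 0.38), and Efnb1, an ephrin B ligand (0.33, SE 0.23). Groups of the last 3 did not overlap, which held for 9 of the 49 (18.4%), against 22.7% of all probes.

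In sorted cells 0 of 50 were called between genotypes by limma, and 4 (8%) had an unadjusted p under 0.05, against 6.79% of all probes. Groups of 8 (16%) did not overlap, against 16.2% of all probes, so neither share stood apart. The 4 with the largest differences are given. Ephb1 lay between 0.72 and 0.87 in Fgf5-/- and between 1.20 and 1.40 in wild-type cells, a difference of -0.51 (SE 0.11, limma adjusted p 0.728). Efnb1 lay between 0.37 and 0.54 against 0.65 to 1.05, a difference of -0.48 (SE 0.14, adjusted p 0.728). Both were among the 8 that did not overlap, and neither passed the test. Ngef, an exchange factor bound by Eph receptors (0.75, SE 0.28), and Rin1, an exchange factor for Rab5 (0.53, SE 0.32), overlapped.

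Between cultured and sorted cells, 46 of the genes were well above background on all 10 arrays, and limma called 10 of them higher and 17 lower (58.7%, against 64.5% of all such probes), with a median of -0.091 against 0.081. Another 6 were fitted without being above background on every array, so their differences are given as bounds, without a test, where they are named. Ptpro, a receptor-type phosphatase that removes phosphate from Eph receptors, lay at 0.30 to 0.98 on the cultured and -5.06 to -4.17 on the sorted arrays, of which 3 of 6 were above background. Set against the background level on the other sorted arrays, it was at least 39.1-fold higher in culture. Epha10, a receptor without kinase activity, was also above background on 3 of 6 sorted arrays and was at least 2.23-fold higher. Kalrn (1.26), Grip1, a scaffold that binds ephrin B (1.04), the kinase Abl1 (0.92) and the receptor Ephb2 (0.89) were also higher.

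Anks1b, an adaptor with a phosphotyrosine-binding domain, was on the opposite side. At probe A_55_P2356263 it lay between -0.46 and -0.18 in sorted cells. This probe was well above background on 0 of 4 cultured arrays, so that it was at least 29.0-fold lower there. Another Anks1b probe, A_55_P1968683, was well above background on 1 of 2 cultures with FGF5 and 0 of 2 without. Ngef was at least 5.12-fold lower, likewise on 0 of 4 cultured arrays. Pik3r1, the regulatory subunit of PI3-kinase (-2.83), Chn2 (-2.67), and Pick1, a PDZ-domain protein (-1.40), were also lower. Efnb2, an ephrin B ligand, was at least 2.36-fold lower at probe A_52_P340073, which was above background on 3 of 4 cultured arrays. Its other probe, A_55_P2138781, was well above background on 4 arrays, all of them cultured (2 of 2 with FGF5 and 2 of 2 without). The probes of Efnb2 thus did not behave alike. Of the 12 further receptors and ephrins, 10 were fitted. Ephb2 was called higher, Ephb4 (-0.89) and Efnb1 (-0.57) lower, and 5 were not called. Epha10 and Efnb2 were not above background on every array and have only the bounds given, without a test.

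**Figure D4:**
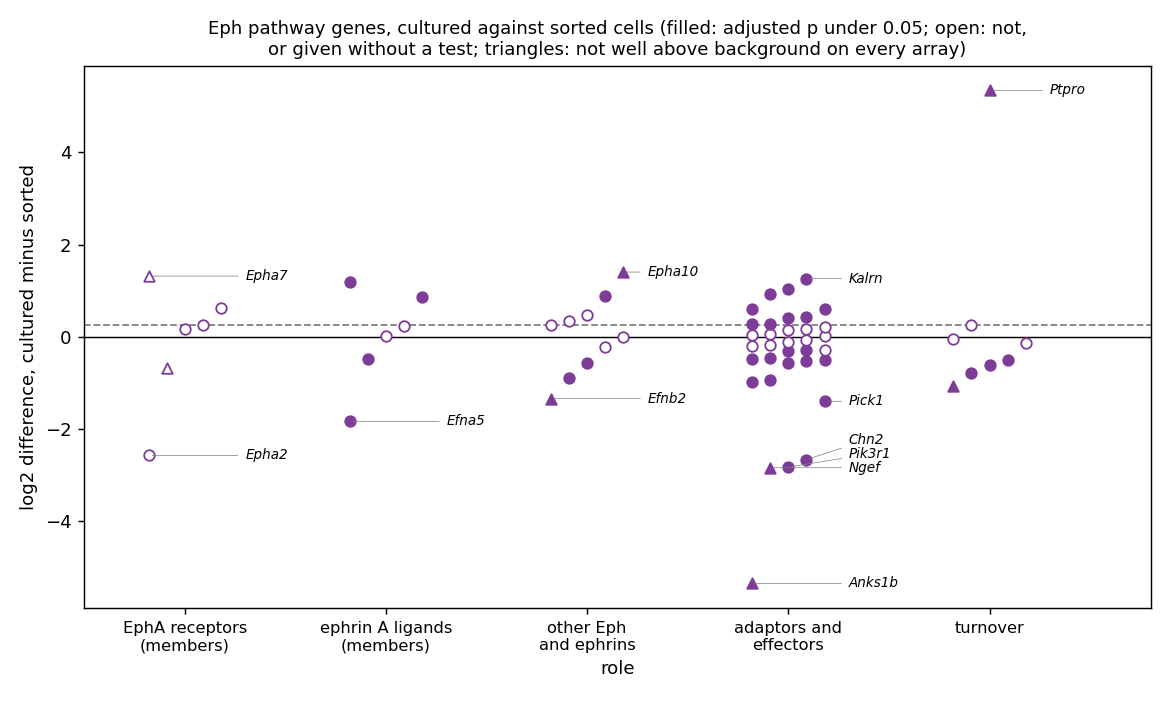
Log2 difference of cultured minus sorted cells (y axis) for the member probes and the other genes of Eph signaling by role (x axis), with filled points for a limma adjusted p under 0.05, a dashed line at the median of all fitted probes, and names for the points farthest from 0. Triangles were not well above background on every array. The plotted distance is thus against arrays at background for Ptpro at the top and Anks1b at the bottom. Filled triangles passed the threshold but are read as bounds only, without a test. Open points did not pass or are given without a test. Points of every role lie on both sides of 0.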

How the data were processed

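Total RNA was measured on 1-color Agilent mouse arrays, 1 per sample. The deposited scanner files hold spot intensities that Feature Extraction had background-subtracted (10.7.1.1 per the file headers, 10.7.3.1 per the labels), with flags. The authors also deposited log2 values, which differ from the log2 scanner signal by 1 constant per array. Here intensities were floored at 1 (0 spots needed it), non-uniform and population outlier spots (117 to 205 per array) were left out, log2 values were averaged per probe, and the array's 75th percentile over non-control spots was subtracted. Differences were fitted with limma 3.58.1 in R 4.3.3, two-sided, with Benjamini-Hochberg adjustment over all fitted probes and a threshold of 0.05, each comparison on its own groups, and cultured against sorted on all 10 arrays in 4 groups. The procedure was tested on simulated data. Precision is limited by the number of arrays, and dim probes are those that background correction can shift most. All members were named with every probe. Up to 6 further Eph pathway genes per direction were named by size of difference among those called, or 4 where none were, as were the 6 genes most like Epha2 and the 2 extreme marker genes on either side. Sequences are from RefSeq (GRCm38.p6) or the array files. The members and lists were chosen with earlier results of these data known. Alternatives were quantile normalization, normexp background correction (offset 50), the authors' table, a percentile over bright probes, other filters, an intensity trend, a replicate block, 1 fit for all arrays, gene means and leaving out each array. Cultured cells with FGF5 against wild-type sorted cells, and the alternatives for likeness to Epha2, were added after seeing the data.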

Additional observations from a re-analysis of the deposited data

How the results depend on the processing

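Calls of member probes changed in none of the alternatives for Fgf5 genotype, where 0 were called throughout. Between cultured and sorted cells 5 to 9 of all member probes fitted had an adjusted p under 0.05, against 7, counting those given above without a test. Efna5, Efna3 at both probes and Efna1 kept their call and direction there under every alternative, except Efna1 in the cultures without FGF5 against wild-type cells. With all 10 arrays in 1 fit, 4 of all probes were called in culture, for which the cause was not tested. The replicate number as a block gave 0 calls in both FGF5 comparisons (2479 and 1562 probes with an unadjusted p under 0.05 by limma). Equal numbers deviated together in culture (r = 0.636) but not in sorted cells (r = -0.42 to -0.149), and the labels do not say what they share. Sorted arrays of unlike number and genotype ranged from r = -0.48 to 0.48. The highest were Fgf5-/- array 3 with wild-type array 1 (0.48) and Fgf5-/- array 1 with wild-type array 2 (0.45), which the replicate block does not pair. Omitting 1 sorted array gave 0 to 6 calls among all probes, with 6 without Fgf5-/- array 1, 5 without Fgf5-/- array 3, and 1 each without wild-type array 2 or 3, none of them a member. Of the 6 genes most like Epha2, 3 stayed among the top 6 with quantile normalization, 3 with normexp, and 3 to 6 when 1 array was left out, with 3 without array 2 of either culture group. The cultured-minus-sorted median of all probes moved by -0.13 with quantile normalization, 0.13 with the percentile over bright probes and -0.18 when only probes above background on every array were kept. Small differences turned sign. Between genotypes, Epha4 was -0.028 with quantile normalization and -0.15 with normexp, Efna2 0.045 with normexp and 0.032 with the bright-probe percentile, Efna3 probe 2 -0.037 with normexp, and Efna5 0.022 with the bright-probe percentile. Between cultured and sorted cells, Epha7 probe 1 was -0.19 with quantile normalization, Efna4 -0.058 with normexp and -0.037 in the authors' table, and Epha4 0.12 with normexp. Epha7 probe 1 gained a call with normexp, the bright-probe percentile and, at 0.41, without the second culture lacking FGF5, as did Epha5 with quantile normalization, the bright-probe percentile and, at 0.80, without wild-type array 1, and Epha1 with the bright-probe percentile. With the mean of its 3 probes, 2 of them at background, Epha5 was called at 1.08. Leaving out 1 array, the genotype difference ranged from -0.25 to 0.19 for Efna2, -0.29 to 0.027 for Efna3 probe 1, -0.026 to 0.14 for Efna4, -0.10 to 0.017 for Efna5, -0.014 to 0.14 for Epha1, -0.17 to 0.16 for Epha4 and -0.31 to 0.39 for Epha5, and the cultured-minus-sorted difference of Efna4 from -0.019 to 0.062.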
